A study of Mus musculus with 26 samples.

Results

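The genes described are Rlf, Mycl and 7 genes that lie near them on mouse chromosome 4: Zmpste24, Ppt1, Cap1, Smap2, Col9a2, Trit1 and Mfsd2a. Rlf was chosen for its difference between secondary and primary tumors on these same arrays, and the others for their position beside it. Of 17097 genes with a named probe set, these are 9, read by 14 of 45037 probe sets. Mycl and Ppt1 each have 3 probe sets, Cap1 has 2 and the other 6 genes have 1 each. A probe set is a group of short probes for 1 transcript, and its value is a log2 intensity. Levels of different probe sets were not set against each other, because probes differ in brightness.

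The arrays come from a mouse model of Group3 medulloblastoma, a tumor of the cerebellum, and from neurospheres, clusters of neural cells grown in suspension. All 26 arrays are labelled C57BL/6 and Trp53-/-, Cdkn2c-/-. The Trp53 Cdkn2c neurospheres (3 arrays, labelled as granule neural progenitors) are labelled with no further allele, whereas every Group3 sample is labelled as also carrying Myc. The series design gives P7 as the age for Trp53-/-, Cdkn2c-/- neurospheres. Group3 samples were neurospheres (7 arrays), untreated tumors (5), secondary tumors (3), and tumors given pemetrexed (2), gemcitabine (3) or pemetrexed+gemcitabine (3). Pemetrexed is an antifolate and gemcitabine a nucleoside analogue. No dose, time, tumor age, vector or host is stated in the labels, and they do not say what made a tumor secondary. Nor do they say whether each array is its own animal or culture, so p-values measure only the spread between arrays.

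Array titles began with dka (12 arrays) or mmm (14). Untreated tumors (replicates 1 to 3 dka, 4 and 5 mmm) and Group3 neurospheres (1 to 3 dka, 4 to 7 mmm) occurred under both codes. The dka untreated tumors are called primary tumors here. Secondary tumors and Trp53 Cdkn2c neurospheres were all dka, and drug-treated tumors were all mmm. Array medians lay between 4.65 and 4.82. The lowest and highest values were 2.56 and 13.9 over the dka arrays, but -0.41 and 16.1 over 13 mmm arrays, and 2.64 and 13.7 on mmm neurosphere replicate 7. Comparisons were therefore made within a code. The mean of mmm neurosphere replicates 4 to 6 differed from the dka neurosphere mean with an SD of 0.132 over probe sets, whereas 1 dka neurosphere differed from the mean of the other 2 with an SD of at least 0.396. How these values were adjusted is not given in the sources used here, so like neurosphere levels under both codes are not independent evidence.

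Rlf encodes a zinc finger protein named for gene rearrangements in human small cell lung cancer that join it to MYCL, the human counterpart of Mycl. Mycl encodes a MYC family transcription factor that pairs with MAX to bind the E-box CACGTG. MYC family genes drive growth in several brain tumors, and MYC itself is often overexpressed in Group3 medulloblastoma. In the mouse gene order (GRCm38.p6), Smap2, Col9a2, Zmpste24 and Rlf came first, then 17 annotated genes of which 6 are protein-coding, then Ppt1, Cap1, Mfsd2a, Mycl and Trit1. Of those 17, only 9530002B09Rik was measured.

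The 250 bases before the starts of Rlf and Mycl are shown because these 2 genes had contrasting values in secondary tumors. They are RefSeq sequence of GRCm38.p6, 5′ to 3′ along each gene. Rlf is on the minus strand at chr4:121215085-121215334, and Mycl on the plus strand at chr4:122995681-122995930. Capitals mark matches to 3 motifs, searched on both strands, and no matches overlapped. The E-box was spelled CACGTG. For the GC box the letters were GGGCGG, and for the TATA box TATAAA.
Rlf: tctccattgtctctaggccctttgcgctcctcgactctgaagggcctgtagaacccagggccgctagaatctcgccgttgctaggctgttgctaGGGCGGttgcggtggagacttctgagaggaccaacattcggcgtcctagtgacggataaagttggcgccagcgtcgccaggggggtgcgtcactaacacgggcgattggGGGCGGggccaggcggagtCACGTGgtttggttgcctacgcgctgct
Mycl: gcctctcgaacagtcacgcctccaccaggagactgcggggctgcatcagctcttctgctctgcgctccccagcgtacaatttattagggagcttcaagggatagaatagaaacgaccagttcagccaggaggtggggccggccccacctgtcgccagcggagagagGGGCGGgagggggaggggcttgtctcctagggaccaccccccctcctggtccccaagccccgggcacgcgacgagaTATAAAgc
The Rlf window held CACGTG once, 22 bases before the gene start, and GGGCGG 2 times. The Mycl window held GGGCGG once and TATAAA once, with no CACGTG. Of 32851 windows of this length, 6.02% held CACGTG, 32.7% GGGCGG and 12.4% TATAAA. Entries were found for 8 of the 9 genes, all but Smap2. CACGTG was in 1 of these 8 windows, that of Rlf, and GGGCGG was in 3. These are matches of letters, not measured binding.

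Rlf was bright on the secondary tumor arrays and at or below about the array median on all other Group3 arrays. In primary tumors the log2 intensity of 1439555_PM_at was 3.87, 4.71 and 4.09, and in secondary tumors it was 8.58, 7.62 and 7.64. The groups did not overlap, and primary tumor replicate 2 was the highest of the dim arrays. The mean was 7.95 ± 0.55 (SD, n = 3) against 4.22 ± 0.43 (n = 3), a difference of 3.72 (SE 0.26, 95% confidence interval 3.17 to 4.27), or 13.2-fold. This is the contrast Rlf was chosen on, so it is given without a test. The primary tumor mean stood at the 41.9th percentile of all probe sets, where intensity follows RNA poorly, so the fold may understate the difference. The secondary tumor mean stood at the 81.3rd percentile. Rlf ranked 4 of 45037 probe sets by the size of its positive difference, 1 of 17097 genes and 1 of 1037 genes of chromosome 4. The next gene was Dlx1, a homeobox gene, at 3.52, and the next on chromosome 4 was Cdkn2a, which encodes cell cycle inhibitors, at 2.84.

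Mycl, in contrast, had like means in both tumor groups. Its brightest probe set, 1434777_PM_at, read 7.11, 7.004 and 7.10 in primary tumors and 7.88, 6.14 and 6.995 in secondary tumors. Secondary tumor replicate 1 was above all 3 primary tumors, and replicates 2 and 3 were below them. The difference of means was -0.07 (SE 0.49, 95% confidence interval -1.09 to 0.96), an interval that leaves room for nearly 1 log2 unit either way. The other Mycl probe sets, 1422087_PM_at and 1422088_PM_at, were below the array median on all 26 arrays. Their differences were 0.19 (SE 0.14) and 0.05 (SE 0.16).

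**Figure D1:**
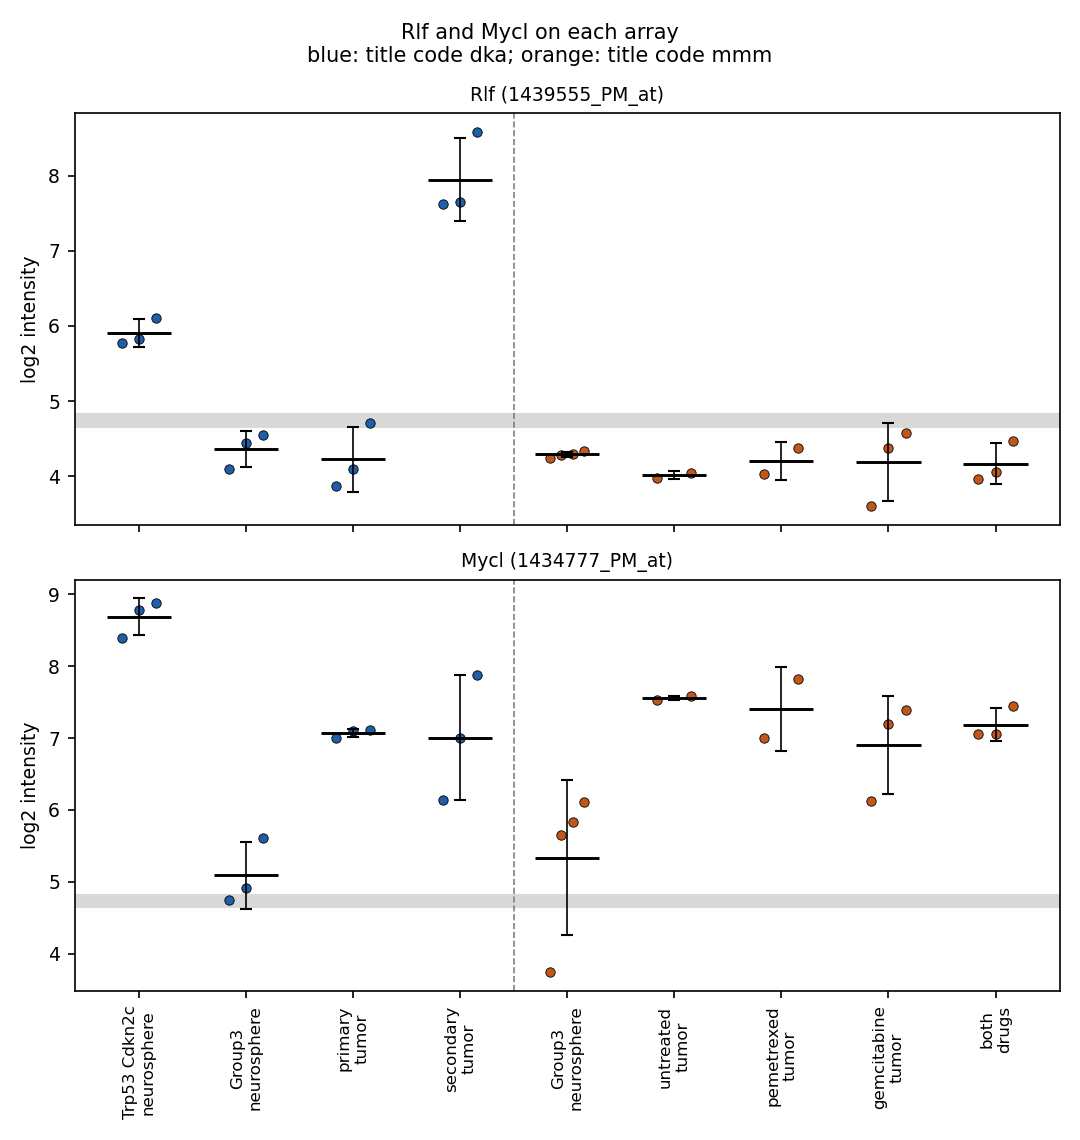
Log2 intensity of Rlf and Mycl (brightest probe set) on each array, with dka groups in blue and mmm groups in orange. Points are arrays, horizontal bars are means, whiskers are 1 SD and the grey band is the range of array medians. Rlf lies above the band in the 3 secondary tumors and the 3 Trp53 Cdkn2c neurospheres.

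The remaining genes between and beside Rlf and Mycl gave smaller differences than Rlf in the same contrast, some with wide intervals. Smap2 encodes an activator of Arf GTPase hydrolysis in Golgi traffic. It read 6.86, 7.03 and 7.93 in primary and 5.89, 6.44 and 6.76 in secondary tumors. Its groups did not overlap, and the difference was -0.91 (SE 0.37). Trit1 encodes the enzyme that adds an isopentenyl group to tRNA. It read 8.52, 8.39 and 8.36 in primary and 9.66, 8.65 and 8.599 in secondary tumors. Again the groups did not overlap, with secondary tumor replicate 1 highest, and the difference was 0.55 (SE 0.33). Cap1 encodes an actin regulator of the cofilin pathway. Its brightest probe set read 9.47, 9.48 and 9.65 in primary and 8.58, 9.37 and 9.23 in secondary tumors. Secondary tumor replicate 1 was lowest, and the difference was -0.47 (SE 0.37), against -0.28 (SE 0.30) for the dimmer probe set.

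Zmpste24 encodes the protease that makes lamin A from its precursor. It read 9.78, 9.93 and 9.94 in primary and 9.73, 9.73 and 9.67 in secondary tumors, a difference of -0.17 (SE 0.14). Ppt1 encodes a lysosomal thioesterase lost in a childhood form of neuronal ceroid lipofuscinosis. Its brightest probe set differed by -0.03 (SE 0.19), 1422468_PM_at by 0.49 (SE 0.25) and the dim 1444884_PM_at by -0.06 (SE 0.15). The 2 brighter Ppt1 probe sets thus had opposite signs. Mfsd2a encodes a lipid transporter of the blood-brain barrier. It read 8.14, 8.30 and 8.49 in primary and 9.19, 8.27 and 8.08 in secondary tumors, overlapping ranges with a difference of 0.21 (SE 0.66). Col9a2 encodes a cartilage collagen chain. It was below the array median in all 6 tumors, and its difference was 0.34 (SE 0.31). Groups without overlap were also seen for Zmpste24, Col9a2, Cap1 1417461_PM_at, Ppt1 1422468_PM_at and the dim Mycl 1422087_PM_at. The share of all probe sets without overlap was not counted, so whether this is more than usual is not known.

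Over the 14 probe sets the differences were positive for 7 and negative for 7, with a median of 0.0070, against -0.0015 over all 45037. The 31 other measured genes in the stretch, which ran 15 measured genes past each end, were tested. With limma, 0 of 31 had an adjusted p under 0.05, and 5 had an unadjusted p under 0.05; over all probe sets 2.28% were called. Their differences ran from -1.25 for Hivep3 to 0.997 for Foxj3, with a median of -0.03, and 24 of 31 were within 0.5 of 0. Foxj3, a forkhead transcription factor gene 15 places from Rlf, had a limma adjusted p of 0.0670. It was called without secondary tumor replicate 2 (adjusted p = 0.0306) or 3 (0.0461), as was Oxct2a without replicate 3 (0.0273) and Bmp8b without primary tumor replicate 2 (0.0184), each by limma. The measured gene next to Rlf, 9530002B09Rik, differed by -0.05 (SE 0.14) at levels below the array medians.

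**Figure D2:**
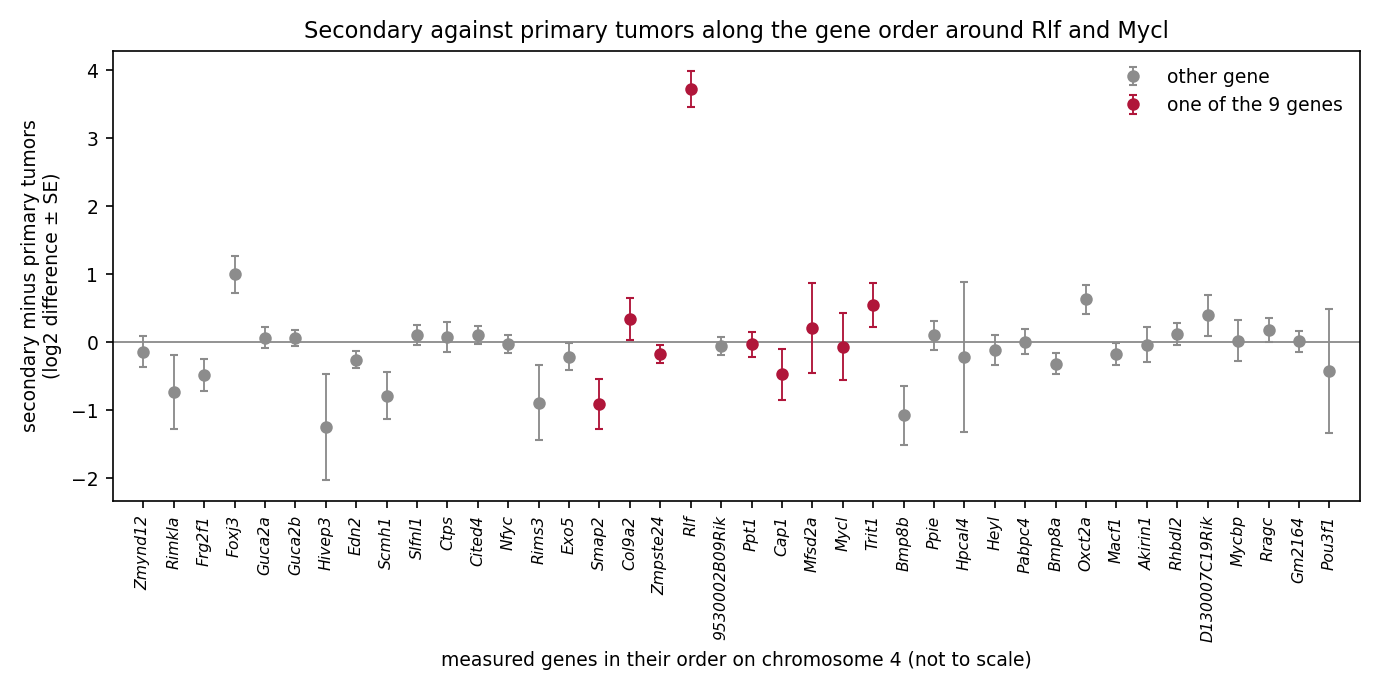
Log2 difference between secondary and primary tumors (vertical axis, ± SE) for 40 measured genes in their order on chromosome 4, not to scale. Red points are the 9 genes and grey points the other 31; Rlf stands at 3.72 and every other gene lies between -1.25 and 0.997.

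Genes that work with these 9 were counted from lists chosen with earlier results known. Of the MYC family and MAX network, 0 of 10 measured genes were called between secondary and primary tumors by limma, and 0 had an unadjusted p under 0.05. Myc differed by 0.78 (SE 0.49, limma adjusted p = 0.528). Of 23 paralogs and partners, 0 were called higher and 2 lower. Lmna, the gene of the lamin A that Zmpste24 matures, was lower by a difference of -2.62 (SE 0.61, limma adjusted p = 0.0239). That call was lost without primary tumor replicate 2 or 3 or secondary tumor replicate 2 or 3, with limma adjusted p up to 0.133. Fntb, which encodes the farnesyltransferase subunit that acts before Zmpste24, had a difference of -0.53 (SE 0.14, limma adjusted p = 0.0441), and its call was lost without any 1 of the 6 tumors (up to 0.192). Zfp292, a paralog of Rlf, differed by 0.74 (SE 0.21, limma adjusted p = 0.0729).

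Whole tumors hold several cell types, and fewer cells of a type and less RNA per cell cannot be told apart. Of 74 measured markers in 8 cell type lists, 0 were called by limma in this contrast, and 14 had an unadjusted p under 0.05. The mean log2 intensity of the 7 oligodendrocyte markers ran from 4.42 to 8.87 over primary tumors and from 4.26 to 4.46 over secondary tumors. For the 7 astrocyte markers it ran from 5.08 to 7.56 and from 4.83 to 5.41. For the 12 fibroblast, pericyte and cartilage markers it ran from 5.13 to 7.12 and from 5.14 to 5.26. The 14 microglia and macrophage markers ran from 6.26 to 6.72 and from 6.40 to 7.72. The 14 endothelial markers ran from 5.33 to 6.73 and from 5.65 to 5.80. For granule neuron progenitor markers it was 6.65 to 7.10 and 6.15 to 6.91. Neuron markers gave 6.56 to 7.26 and 5.88 to 6.88, and red blood cell markers 4.96 to 5.52 and 5.45 to 5.70. Differences were negative for all 7 oligodendrocyte (median -2.03) and all 7 astrocyte markers (median -1.51). They were positive for all 14 microglia and macrophage markers (median 0.62). The part of these cells in the values of Rlf, Lmna and the other genes was not tested. The Rlf difference was 3.41 without secondary tumor replicate 1, and no less in any other setting tried.

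The neurosphere comparison did not enter the choice of the genes. In Trp53 Cdkn2c neurospheres Rlf read 5.77, 5.83 and 6.11, and in dka Group3 neurospheres 4.44, 4.10 and 4.55. The groups did not overlap, and only the former lay above the array medians. Rlf was lower in Group3 neurospheres by a difference of -1.54 (SE 0.26, 95% confidence interval -2.09 to -0.99, limma adjusted p = 0.000283). Mycl was lower too: it read 8.40, 8.88 and 8.79 in Trp53 Cdkn2c and 5.61, 4.92 and 4.74 in Group3 neurospheres. The gap between the nearest arrays was wide, and the difference was -3.60 (SE 0.49, limma adjusted p = 2.9e-05), or 12.1-fold. The dim probe set 1422088_PM_at was lower by a difference of -0.79 (SE 0.16, limma adjusted p = 0.00155). For 1422087_PM_at the difference was -0.36 (limma adjusted p = 0.0844), and it was called without Trp53 Cdkn2c neurosphere replicate 1 (-0.53, 0.0106).

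Trit1, the gene beside Mycl, read 8.61, 8.83 and 9.30 in Trp53 Cdkn2c and 7.83, 6.96 and 7.81 in Group3 neurospheres. It was lower in Group3 neurospheres without overlap, by a difference of -1.38 (SE 0.33, limma adjusted p = 0.00487). Col9a2 read 4.84, 5.69 and 5.24 against 3.54, 3.26 and 3.99, the latter all below the array medians, so the difference of -1.66 (SE 0.31, limma adjusted p = 0.000621) may understate the change. Zmpste24 was the gene higher in Group3 neurospheres. It read 10.39, 10.27 and 10.50 against 9.78, 10.004 and 9.91, a difference of 0.49 (SE 0.14, limma adjusted p = 0.0140). That call was lost without Trp53 Cdkn2c neurosphere replicate 1 (limma adjusted p = 0.0669) or Group3 neurosphere replicate 3 (0.0650).

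In all, 1 of 14 probe sets was higher and 5 were lower, from 5 of 9 genes; 9.77% of all probe sets were higher and 10.4% lower. Smap2 (-0.73), Ppt1 (0.28 for its brightest probe set), Cap1 (-0.24) and Mfsd2a (0.27) did not pass. The median over the 14 was -0.30, against 0.04 over all probe sets. Of the 31 other genes of the stretch, 2 were higher and 7 lower by limma. Hivep3, a zinc finger gene, had the lowest difference at -4.12 (limma adjusted p = 0.000745), and Pou3f1, a POU transcription factor gene, the highest at 4.75 (limma adjusted p = 0.00082).

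The same neurospheres differed in other lists. Of the MYC family and MAX network, 2 of 10 were higher, Mycn (8.09, limma adjusted p = 1.08e-12) and Mxd4 (1.28, 0.00916), and 2 lower, Mlxip (-1.07, 0.00143) and Mxi1 (-0.75, 0.00986). Myc itself, which the Group3 labels name, was not called higher: its difference was -0.44 (SE 0.49, limma adjusted p = 0.621). Its probe set thus does not bear out the label, and whether it reads the introduced Myc is not given in the sources used here. Mycn therefore moved opposite to Mycl, its paralog. Of 23 paralogs and partners, 5 were higher and 3 lower. Among the higher were Tpp1 (1.18, limma adjusted p = 0.00131) and Cln8 (0.79, 0.00133), which like Ppt1 are genes of neuronal ceroid lipofuscinosis, and the Cap1 paralog Cap2 (2.59, 0.0247). The Cap2 call was lost in 5 of 6 fits with 1 array left out, all but that without Group3 neurosphere replicate 3 (limma adjusted p up to 0.0795). Among the lower was the Rlf paralog Zfp292 (-0.82, limma adjusted p = 0.00805), a call lost without Group3 neurosphere replicate 1 (0.0572). The remaining called genes were Pfn1 and Ppt2, higher, and Icmt and Rce1, lower. Each of these remaining calls was lost in at least 1 fit with 1 array left out. Granule neuron progenitor markers were lower for 8 of 9 and higher for 1. All 9 had a mean above the overall median in Trp53 Cdkn2c neurospheres and 4 of 9 in dka Group3 neurospheres; their mean log2 intensity ran from 9.12 to 9.80 and from 5.52 to 5.71. Microglia markers were lower for 9 of 14, running from 6.09 to 6.52 and from 3.94 to 4.10, and endothelial markers for 3 of 14, from 4.97 to 5.49 and from 4.23 to 4.31. Neuron markers were lower for 3 of 8, from 7.01 to 7.51 and from 4.54 to 5.52. Other lists went the opposite way: astrocyte markers were higher for 2 of 7, from 5.43 to 6.15 and from 7.19 to 7.55, and oligodendrocyte markers for 2 of 7, from 5.15 to 5.25 and from 6.24 to 6.81. Of 12 fibroblast, pericyte and cartilage markers 1 was lower, as was 1 of 3 red blood cell markers. Their part in the values of the 9 genes was not tested.

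The next comparison, also apart from the choice of the genes, set mmm untreated tumors against mmm Group3 neurospheres. Mycl read 7.54 and 7.58 in the tumors and 3.74, 5.65, 6.11 and 5.84 in the neurospheres. Both tumors were above all 4 neurospheres, of which replicate 4 was far the lowest. Mycl was higher in tumors by a difference of 2.23 (SE 0.52, 95% confidence interval 1.14 to 3.31, limma adjusted p = 0.00559), or 4.68-fold. Zmpste24 went the other way. It read 9.75 and 9.59 in tumors and 10.20, 10.10, 10.56 and 10.53 in neurospheres, again without overlap, a difference of -0.68 (SE 0.15, limma adjusted p = 0.00304).

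These 2 of 14 probe sets, 1 higher and 1 lower, compare with 8.1% higher and 9.35% lower over all probe sets. Without tumor replicate 4 or 5 the share of all probe sets called in either direction was 6.72% or 6.71%. Both calls rest on 2 tumors and on the spread pooled over all arrays. With only the 2 groups in the fit, limma gave an adjusted p of 0.0988 for Mycl and 0.0789 for Zmpste24, so 0 of 14 were called. Without tumor replicate 5 it gave 0.0631 and 0.0683, and without tumor replicate 4 it gave 0.0571 for Mycl. Rlf read 3.98 and 4.05 in tumors and 4.30, 4.33, 4.25 and 4.28 in neurospheres, all below the array medians. Its difference was -0.28 (95% confidence interval -0.86 to 0.31, limma adjusted p = 0.556). Cap1 spread from 8.04 to 9.98 over the neurospheres, and its difference was 0.71 (limma adjusted p = 0.244). Cap1 was called by limma without neurosphere replicate 4 (1.06, 0.0341) and with arrays weighted by quality (0.96, 0.00931). Those settings also called 18.2% and 30.1% of all probe sets.

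Of the other 31 genes of the stretch, 2 were higher in mmm tumors, Hpcal4 (5.88, limma adjusted p = 0.00173) and Hivep3 (3.04, 0.0149), and 4 were lower, led by Frg2f1 (-1.64, 0.000184). The Hivep3 call was lost without tumor replicate 4 or 5 (limma adjusted p = 0.0849 and 0.138) and the Hpcal4 call without replicate 5 (0.0596). In the MYC family and MAX network 1 of 10 was higher, Mycn (1.14, limma adjusted p = 0.0266), and 1 lower, Mxd3 (-1.27, 0.000939). The Mycn call was lost without tumor replicate 4 or 5 (limma adjusted p = 0.135 and 0.175). Of 23 paralogs and partners, 2 were higher and 5 lower. Ctsd was higher (1.13, limma adjusted p = 0.00288), and Cln6 (-2.44, 0.000172) and Tpp1 (-1.17, 0.00321) were lower. All 3 are genes of neuronal ceroid lipofuscinosis. The remaining called genes were Icmt, higher, and Lmna, Col9a3 and Cdk5rap1, lower. Each of these remaining calls was lost in at least 1 fit with 1 array left out. Of the 74 cell type markers 45 were higher in tumors and 1 lower. All 14 microglia markers were higher, with mean log2 intensity of 8.02 to 8.18 in tumors and 3.94 to 4.14 in neurospheres. So were 11 of 14 endothelial markers (6.11 to 6.36 and 4.14 to 4.32) and 6 of 8 neuron markers (8.73 to 8.94 and 4.18 to 6.02). Their part in the Mycl and Zmpste24 values was not tested.

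**Figure D3:**
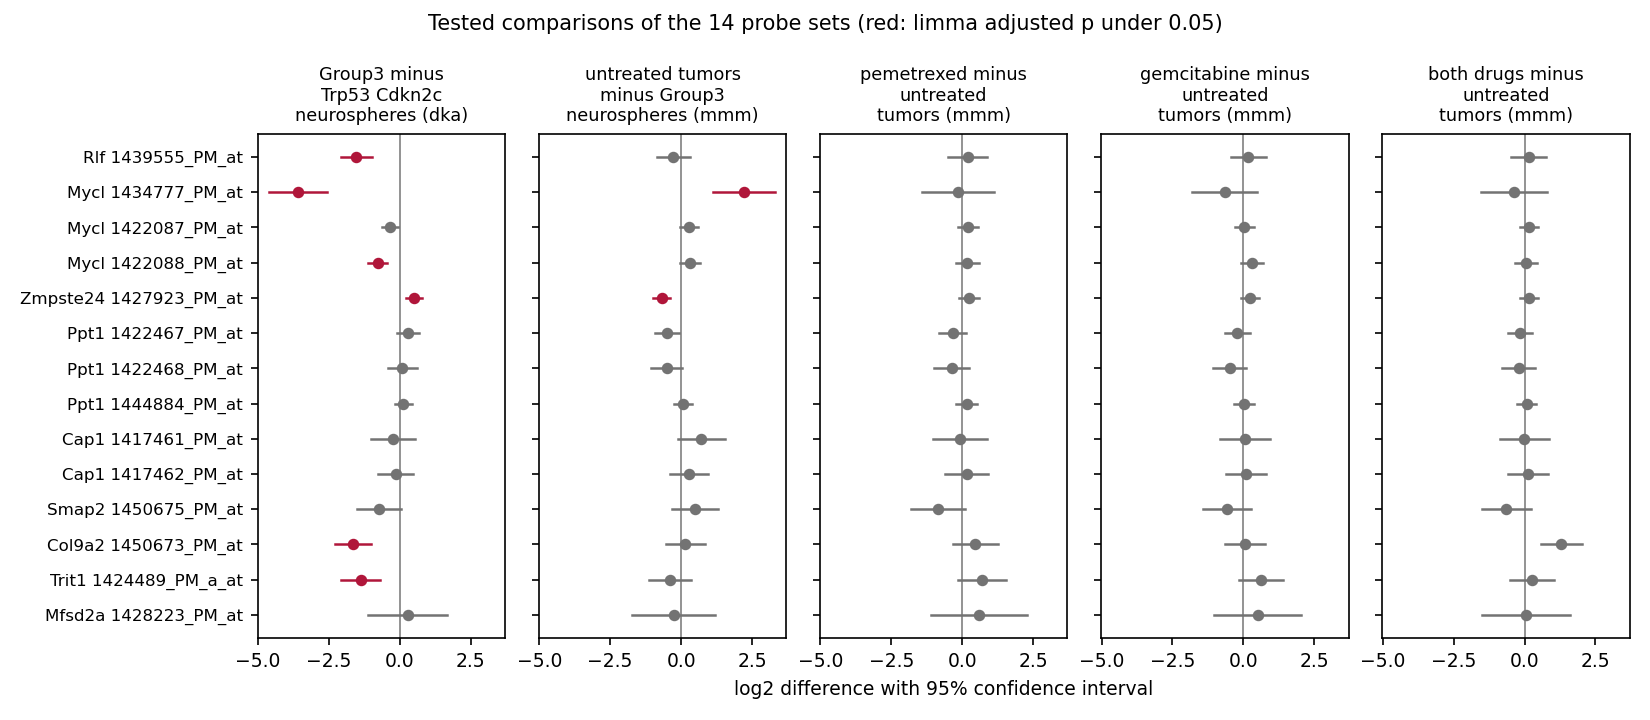
Log2 differences (horizontal axis) of the 14 probe sets with 95% confidence intervals in the 5 comparisons that were tested; red marks a limma adjusted p under 0.05. There are 6 red points for the neurosphere genotypes, 2 for untreated tumors against neurospheres and 0 for each drug comparison.

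The other dka comparisons share tumor arrays with the contrast the genes were chosen on, and with each other, so their values stand without a test. Primary tumors minus Group3 neurospheres gave -0.14 (SE 0.26) for Rlf, 1.98 (SE 0.49) for Mycl, 0.89 (SE 0.33) for Trit1 and -0.51 (SE 0.14) for Zmpste24. Mycl, Trit1 and Zmpste24 did not overlap between these groups. Neither did Ppt1 1422467_PM_at (-0.54, SE 0.19), Ppt1 1422468_PM_at (-0.82, SE 0.25) and the dim Mycl 1422088_PM_at. Mfsd2a (1.88, SE 0.66) did overlap. Shares without overlap over all probe sets were not counted. Secondary tumors minus Group3 neurospheres gave 3.58 for Rlf, 1.91 for Mycl, 1.44 for Trit1 and -0.68 for Zmpste24. Primary tumors minus Trp53 Cdkn2c neurospheres gave -1.68 for Rlf, -1.62 for Mycl and -1.71 for Col9a2, each without overlap. In the order of dka means, Rlf ran from secondary tumors through Trp53 Cdkn2c neurospheres to Group3 neurospheres and primary tumors, and only the last pair overlapped. Mycl ran from Trp53 Cdkn2c neurospheres through primary and secondary tumors to Group3 neurospheres, and only the tumor groups overlapped. Under mmm, the 5 groups in the order of their Rlf means each overlapped with the next. The first and last of them, neurospheres and untreated tumors, did not overlap. For Mycl the 4 tumor groups each overlapped with the next. The first of them, untreated tumors, did not overlap with tumors given gemcitabine or both drugs. The neurospheres lay last. Their highest array, at 6.106, was only just below the lowest gemcitabine array, at 6.119.

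Mfsd2a was the gene whose Group3 neurospheres spread most widely. It read 8.30, 5.08 and 5.92 in the dka and 5.56, 5.54, 7.63 and 8.14 in the mmm Group3 neurospheres. Replicate 1 lay within the range of the dka tumors, replicates 6 and 7 were above both untreated mmm tumors, and the other 4 were below the untreated tumors of their code. It read 5.91, 6.33 and 6.24 in Trp53 Cdkn2c neurospheres, below all 6 dka tumors, and primary tumors minus these gave 2.15 (SE 0.66). Mfsd2a is known from brain endothelium. The endothelial markers had a mean log2 intensity of 4.23 to 4.31 over the dka Group3 neurospheres, below the array medians, on arrays where Mfsd2a ran from 5.08 to 8.30. In that group 3 of the 14 had a mean above the overall median. In dka primary and secondary tumors, 10 of 14 did in each. Mfsd2a means there were 8.31 and 8.51, against 6.43 in dka Group3 neurospheres. In Trp53 Cdkn2c neurospheres 8 of 14 did, with a Mfsd2a mean of 6.16. Under mmm, 12 of 14 did in untreated tumors, where Mfsd2a read 6.599 and 6.31. In mmm neurospheres 3 of 14 did, and Mfsd2a ran from 5.54 to 8.14. The part of endothelial cells in the Mfsd2a values was not tested.

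**Figure D4:**
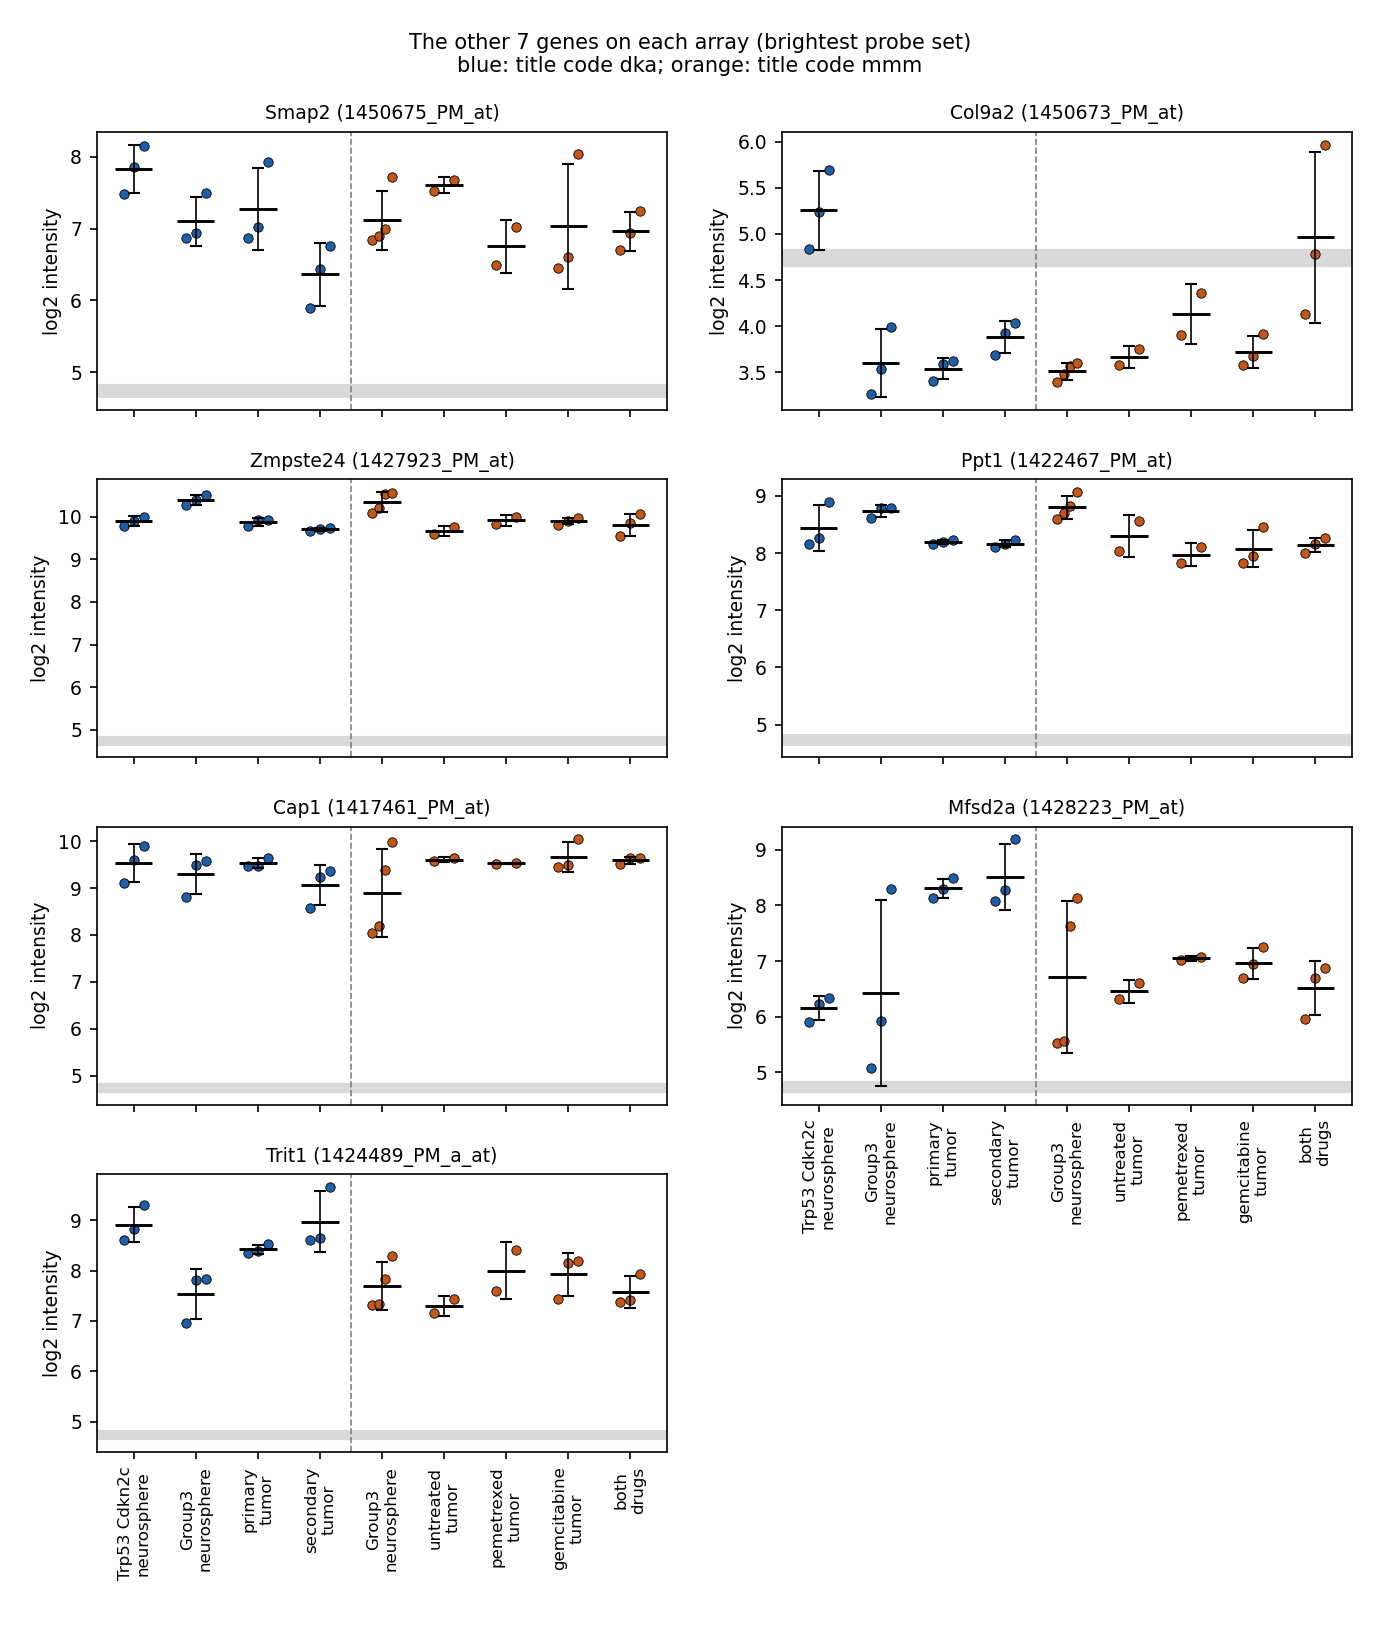
Log2 intensity of the other 7 genes (brightest probe set) on each array, with dka groups in blue and mmm groups in orange. Points are arrays, horizontal bars means, whiskers 1 SD and the grey band the range of array medians. Zmpste24 is highest in Group3 neurospheres under both codes, Mfsd2a spreads most in Group3 neurospheres, and Col9a2 lies above the band in Trp53 Cdkn2c neurospheres and in 1 tumor given both drugs.

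In the drug-treated tumors limma called 0 of 14 probe sets for pemetrexed, 0 for gemcitabine and 0 for both drugs. Unadjusted limma p fell under 0.05 for 0, 0 and 1 of the 14, against 1971, 3761 and 3335 of all 45037. The 1 of 14 is close to the share over all probe sets. By adjusted p the background was low as well, at 0.00444%, 0.00888% and 0.0688% of all probe sets, which is 2, 4 and 31 probe sets. These counts moved with single arrays. For gemcitabine 704 (1.56%) were called without gemcitabine replicate 3, 0 without replicate 2, and up to 25 without any other. Pemetrexed gave 26 without tumor replicate 5, 21 without tumor replicate 4, 4 without pemetrexed replicate 1 and 1 without replicate 2. Both drugs gave 82 without combination replicate 2, 1 without replicate 1 and 13 without replicate 3. Rlf read 4.03 and 4.38 with pemetrexed, 4.58, 4.38 and 3.60 with gemcitabine, and 4.47, 4.05 and 3.96 with both. All lay below the array medians, as did the mmm untreated tumors. The 95% confidence intervals of its differences ran from -0.49 to 0.86, -0.44 to 0.79 and -0.47 to 0.77.

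Mycl read 6.997 and 7.82 with pemetrexed, 7.19, 7.39 and 6.12 with gemcitabine, and 7.45, 7.05 and 7.06 with both. It was lower on every array with gemcitabine or both drugs than in the untreated tumors, at 7.54 and 7.58. Its differences from untreated tumors were -0.15 (95% confidence interval -1.41 to 1.11), -0.66 (-1.80 to 0.49) and -0.37 (-1.52 to 0.78). The intervals thus allow a fall of over 1 log2 unit in each. Col9a2 was the probe set with an unadjusted p under 0.05. It read 5.97, 4.14 and 4.78 with both drugs and 3.75 and 3.58 without. The groups did not overlap, and only combination replicate 1 was above its array median. The difference was 1.30 (SE 0.35, limma adjusted p = 0.294), and without combination replicate 2 it was 1.71 (limma adjusted p = 0.0259). The mean log2 intensity of the fibroblast, pericyte and cartilage markers ran from 6.09 to 6.27 with both drugs and from 6.12 to 6.61 without. For the granule neuron progenitor markers it ran from 6.83 to 7.39 and from 6.73 to 6.85. Of the 74 cell type markers limma called 1 higher with both drugs, a granule neuron progenitor marker, and 0 lower. The part of these cells in the Col9a2 values was not tested. Smap2 had the largest negative difference with pemetrexed at -0.85 and with both drugs at -0.64 (limma adjusted p = 0.9999 and 0.799).

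With arrays weighted by their quality in the limma fit, 3 of 14 probe sets were called for gemcitabine: Smap2 (-0.93), Ppt1 1422468_PM_at (-0.67) and Trit1 (0.80). Under that weighting 13.3% of all probe sets were called too, against 0.00888% without it. For both drugs it called Col9a2 (1.14), where 3.18% of all were called. Of the other 31 genes of the stretch, 0 were called by limma for any drug group, with unadjusted p under 0.05 for 2, 3 and 2.

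By a fixed rule, the genes most like Rlf and Mycl were those with the highest Pearson r over the 12 dka arrays, among 11510 genes. For Rlf these were Nr2c2 (0.95), Ramp2 (0.95), Dhx36 (0.94), Bclaf1 (0.94) and Rad18 (0.93). Nr2c2 encodes a nuclear receptor, Ramp2 a receptor partner, Dhx36 a helicase and Rad18 a DNA damage ubiquitin ligase. Each had its highest dka mean in secondary tumors, such as 7.36 for Nr2c2 against 6.02 in primary tumors. That follows from picking them by likeness to Rlf on these same arrays, and is no separate result. Over the 14 mmm arrays, where Rlf stayed dim, r was 0.44, 0.079, 0.23, 0.026 and 0.62. For Mycl they were Brpf1 (0.98), Prr36 (0.97), Nsg2 (0.97), Stmn4 (0.96) and Cecr2 (0.96), with r from 0.56 to 0.78 over the mmm arrays. Brpf1 and Cecr2 encode chromatin proteins, and Stmn4 a neuronal microtubule protein. None of these 10 genes is on chromosome 4, but it holds only 1037 of 17097 genes, so little can be read from that. Rlf itself had an r of 0.37 with Mycl and 0.69 with Trit1 over the dka arrays, and of 0.0045 and 0.44 over the mmm arrays. Arrays of a code share their groups and processing, so each r describes them and carries no test.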

How the data were processed

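RNA from 26 samples was measured on mouse Affymetrix HT MG-430 PM arrays after Trizol extraction, per the labels' protocols. The deposited values are log2 intensities that the authors made with RMA (version not given) and Partek 6.6, per the submitters' processing notes, and were used unchanged. Of 45141 probe sets 104 controls were left out. Of the rest, 28898 had 1 gene symbol, 551 several and 15588 none. The brightest probe set on average stood for a gene. limma 3.58.1 (R 4.3.3) was fitted with 1 mean for each of 9 combinations of group and title code, with p-values adjusted by Benjamini-Hochberg over 45037 probe sets and called under 0.05. Standard errors come from this fit. It was tested on simulated data. Groups of 2 to 4 arrays within a code limit the precision.

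The genes and lists were chosen with earlier results of these data known. Named were all probe sets of the 9 genes; neighbours next to them or among the 3 largest differences each way; up to 4 genes per list, or the 2 largest where none was called; and the 5 genes most like Rlf and Mycl. Neighbours called in an alternative, Zfp292, Cln8, Ctsd and Tpp1 were partly named outside this rule after their values were seen. So were the remaining called paralogs and partners. Leaving out arrays was then extended to neighbours and list genes. Sequences are RefSeq GRCm38.p6. Figures used Python 3.11.15 and matplotlib 3.10.9. Alternatives were other normalization, filters, array sets, array weights and leaving out arrays.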

Additional observations from a re-analysis of the deposited data

Results flagged for a closer look

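Among 42 combinations of probe set and group with 4 to 10 arrays, 2 held an array far from the others by Dixon's test, which flags about 1 in 20 groups by chance. Rlf in untreated Group3 tumors was 4.71 in replicate 2, a primary tumor, where the nearest of the other 4 was 4.09. That tumor was still below every secondary tumor. The Mycl probe set 1422087_PM_at was 3.57 in Group3 neurosphere replicate 7, where the nearest of the other 6 was 3.73. Both groups span the title codes. The Rlf value was just above the median of its own array, 4.69, and the Mycl value below its array's median.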

How the results depend on the processing

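The Rlf difference between secondary and primary tumors ran from 3.41 to 3.96 over 13 alternatives, and leaving out 1 array gave that same range. Called probe sets for the neurosphere genotypes numbered 5 to 6, and those for pemetrexed 0 throughout. Leaving out 1 array gave 0 to 3 for mmm tumors against neurospheres (2 in the fit of all arrays), 0 to 1 for both drugs, and 0 to 2 neighbours for secondary against primary tumors, an alternative added after seeing the data. Only the compared groups in the fit gave 0 for mmm tumors against neurospheres. Array weights gave 3 for gemcitabine, 1 for both drugs and 3 for mmm tumors against neurospheres, where Cap1 was added. With those weights 13.3%, 3.18% and 30.1% of all probe sets were called in these comparisons. Quantile normalization gave 1 neighbour, Foxj3 (limma adjusted p = 0.0416). Of 8 called results, 95 of 102 alternatives kept the call, 7 lost it and 0 turned; the causes were not tested. Rlf has 1 probe set, so a mean over its probe sets was not run. The filter on dim probe sets removes members that are dim in every group. No paired analysis was possible because replicate numbers follow deposit order. The 2 untreated mmm tumors limit the drug comparisons, and signal near background limits Rlf outside secondary tumors and Trp53 Cdkn2c neurospheres.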
